A study of Mus musculus with 10 samples.

Results

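Genes of the meiotic chromosome axis, the synaptonemal complex, recombination and the meiotic divisions were examined in RNA from mouse round spermatids, the haploid cells that meiosis leaves behind. The set held 35 genes, chosen by name, and all 35 were found among the 55401 genes of the deposited count table. The RNA came from adult males of CD1, an outbred stock. Under isoflurane their testes were for 30 minutes in contact with a water bath, at 33 °C in the control group and at 42 °C in the heat group, and the cells were isolated after the animals had woken and been killed. Each group held 5 libraries of total RNA depleted of ribosomal RNA, and the design's N of 5 is read as 5 mice. The purity of the isolated cells is not stated in the sources used here. Levels are CPM, the counts of a gene scaled to a common library total, and levels of different genes are compared per kilobase of exon. Changes are log2 fold changes, 42 °C minus 33 °C, where 0 is no change and 1 is a doubling.

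In meiosis, chromosomes are first broken by SPO11, and the breaks are repaired from the homologous chromosome by the strand exchange protein DMC1 and its helpers. Homologues are zipped together by the synaptonemal complex, whose axes rest on meiosis-specific cohesins and whose middle is a central element. Crossovers then mature on MutS and MutL complexes before the divisions produce round spermatids. Transcripts of these genes are made mainly in spermatocytes, so in a spermatid preparation they can be RNA inherited through the divisions, RNA made anew in spermatids or RNA of spermatocytes isolated with them. In bulk RNA these sources cannot be told apart, and neither can fewer cells of a type and less RNA per cell.

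Promoters of 6 members are shown because the results below turn on these genes. Stag3 had the most counts and Meioc the smallest p of the set. Sycp3 and Hormad1 varied in one direction across the libraries, and Syce2 and Trip13 in the other. Each sequence is the 250 bases before the RefSeq start on GRCm38.p6, read 5′ to 3′ on the strand of the gene. Capitals mark the 4 motifs searched on both strands, which were TTCCCGC (E2F6), CACGTG (the E-box of MGA and MAX), CCTCAG (core of the STRA8 motif) and TAACNG (MYB family). A match on the opposite strand is printed as its reverse complement, and the searched motifs do not contain each other. The windows of Stag3 and Meioc lie wholly inside the gene spans of GENCODE M21 given below, and those of Sycp3 and Trip13 in part.
Stag3, chr5:138280259-138280508, plus strand: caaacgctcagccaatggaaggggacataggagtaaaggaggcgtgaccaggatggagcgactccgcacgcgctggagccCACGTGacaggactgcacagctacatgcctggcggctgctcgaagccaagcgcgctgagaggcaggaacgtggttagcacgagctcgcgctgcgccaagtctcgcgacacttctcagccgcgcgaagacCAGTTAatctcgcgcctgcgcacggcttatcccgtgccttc
Meioc, chr11:102665335-102665584, plus strand: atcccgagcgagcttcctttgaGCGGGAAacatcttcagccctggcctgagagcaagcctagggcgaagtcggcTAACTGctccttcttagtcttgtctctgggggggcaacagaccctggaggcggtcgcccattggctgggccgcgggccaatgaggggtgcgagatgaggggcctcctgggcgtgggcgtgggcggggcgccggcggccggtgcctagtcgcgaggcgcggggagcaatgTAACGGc
Sycp3, chr10:88459337-88459586, plus strand: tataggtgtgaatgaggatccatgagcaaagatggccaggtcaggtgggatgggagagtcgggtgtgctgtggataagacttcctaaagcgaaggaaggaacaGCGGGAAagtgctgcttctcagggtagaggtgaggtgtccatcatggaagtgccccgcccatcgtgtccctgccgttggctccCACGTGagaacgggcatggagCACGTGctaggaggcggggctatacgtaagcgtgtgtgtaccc
Hormad1, chr3:95559427-95559676, plus strand: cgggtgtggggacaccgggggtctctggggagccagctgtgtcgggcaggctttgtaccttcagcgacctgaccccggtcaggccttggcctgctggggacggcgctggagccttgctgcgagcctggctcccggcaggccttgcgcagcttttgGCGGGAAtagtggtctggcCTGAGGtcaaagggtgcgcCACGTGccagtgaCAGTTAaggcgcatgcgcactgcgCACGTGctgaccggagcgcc
Syce2, chr8:84871861-84872110, plus strand: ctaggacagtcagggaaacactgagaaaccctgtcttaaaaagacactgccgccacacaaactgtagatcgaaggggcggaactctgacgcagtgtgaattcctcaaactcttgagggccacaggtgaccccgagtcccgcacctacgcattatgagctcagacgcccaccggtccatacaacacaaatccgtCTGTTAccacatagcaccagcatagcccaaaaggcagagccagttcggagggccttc
Trip13, chr13:73937768-73938017, minus strand: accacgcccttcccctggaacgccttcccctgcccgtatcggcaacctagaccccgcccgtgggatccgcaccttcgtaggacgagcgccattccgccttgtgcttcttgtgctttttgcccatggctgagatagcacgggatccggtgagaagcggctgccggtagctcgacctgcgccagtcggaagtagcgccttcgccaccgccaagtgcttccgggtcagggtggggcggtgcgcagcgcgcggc

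RefSeq promoters were found for 29 of the 35 genes, and the first listed promoter of each gene was used. TTCCCGC was present in 7 of 29 (24.1%), beside 3.84% of 27025 genes of the RefSeq table. The 7 were Tex12, Sycp3, Hormad1, Smc1b, Msh5, Meioc and Tex14. CACGTG was present in 5 (17.2%, beside 6.05%), in Tex12, Sycp1, Sycp3, Hormad1 and Stag3. TAACNG was found in 9 (31.0%, beside 19.8%) and CCTCAG in 6 (20.7%, beside 22.2%). The promoters of the set held a median of 15 CpG dinucleotides in 250 bases, beside 6 for all genes. Among promoters with at least 15 CpG, TTCCCGC was in 6 of 15 members and in 9.68% of 7436 genes, and CACGTG in 4 of 15 (26.7%) and 9.92%. In the same promoters TAACNG was in 5 of 15 members (33.3%) and 12.2% of genes, and CCTCAG in 5 of 15 (33.3%) and 21.2%, a higher share among members where the comparison over all promoters gave a lower one. Of the sequences printed above, Sycp3 and Hormad1 carried TTCCCGC once and CACGTG at 2 sites, while Trip13 carried none of the 4 motifs. Mlh3, Pttg1 and Terb1, which varied across libraries in the direction of Sycp3, also carried none. Smc1b, with TTCCCGC, and Sycp1, with CACGTG, varied in the other direction. A relation of motifs to direction was not tested. A match describes the letters in this window and is not a measured binding site.

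Library totals were 92311183 to 117723075 counts at 33 °C and 60623568 to 102086073 at 42 °C. The shallowest library, 42 °C replicate 2, also had 16.2% of its counts on transposable elements (TE), where the other 9 had between 4.62% and 9.07%. Spermatid markers were higher than those of the other cell types listed here, which did not include spermatocytes. The 20 round spermatid markers had a median level of 68.4 CPM per kilobase and 18 markers of elongating spermatids, the next stage, had 195. Markers of the other listed cells were far lower, with medians of 0.341 for 17 spermatogonial, 0.267 for 15 Sertoli, 0.134 for 9 Leydig, 0.115 for 9 macrophage and leukocyte and 0.0171 for 6 erythroid genes. No marker on these lists was at 0 in all libraries. Meiotic genes outside the set, 93 in all, had a median of 9.97 CPM per kilobase and reached 653, for Hspa2. The share of spermatocytes among the cells was not measured. Summed over its list, each library had 18.0 to 33.2 CPM of Sertoli markers and 3.17 to 20.5 CPM of Leydig markers, the highest in 33 °C replicate 3.

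The levels of the meiotic genes ranged over 7636-fold per kilobase, from 0.0289 CPM per kilobase for Mei4 to 221 for Syce1, with a median of 3.81 beside 1.37 for all tested genes. Of the 35, 15 were above 10 and 9 were below 1 CPM per kilobase. The division genes Ccna1, Nek2 and Pttg1, were among the 8 highest. Of the 7 genes of break formation and strand exchange, Mei4, Prdm9, Mei1, Dmc1 and Spata22 were under 1 CPM per kilobase, while Meiob had 2.01 and Spo11 9.31. Of all 2640293 counts on the set, 66.1% came from Stag3, Syce1, Nek2, Ccna1 and Smc1b. For 18 of the 35 genes the highest and the lowest of 10 libraries differed by less than 2-fold.

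**Figure D1:**
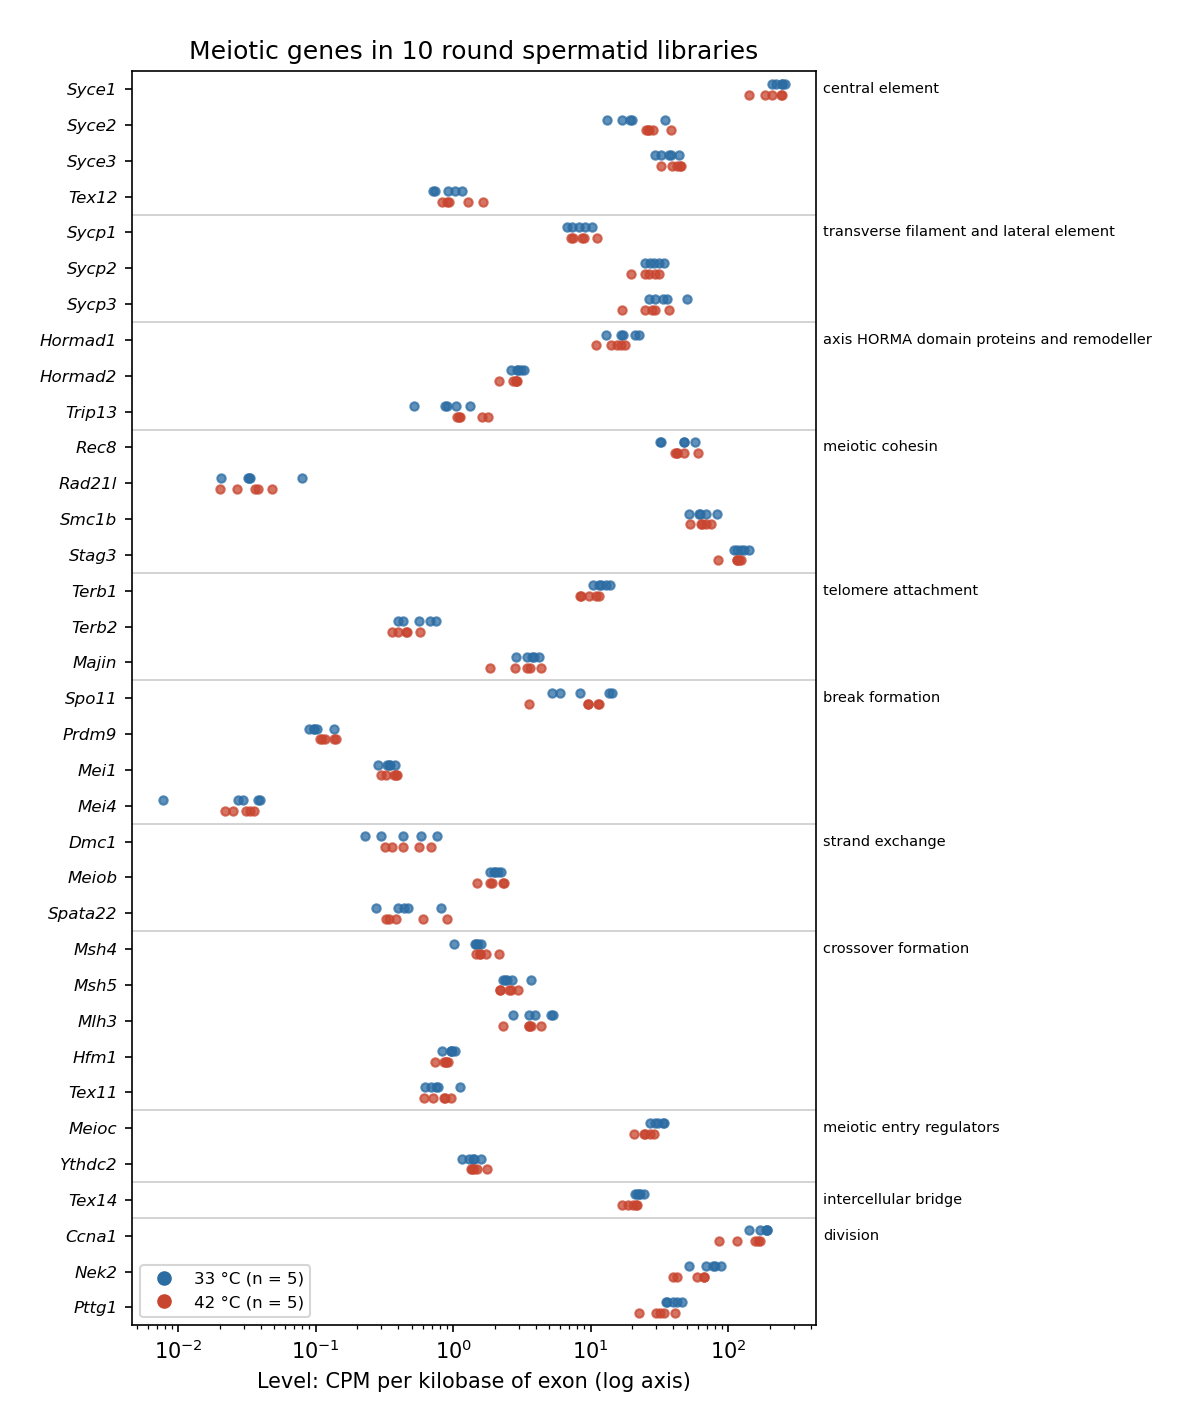
Level of each meiotic gene in 10 round spermatid libraries, in CPM per kilobase of exon on a log axis, ordered by role, with 1 point per library (blue 33 °C, red 42 °C). Blue and red points of a gene overlap throughout, while members of 1 complex can lie far apart, such as Rec8 and Rad21l or Syce1 and Tex12.

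Subunits of 1 complex were present at very different RNA levels. In the central element, Syce1 (ENSMUSG00000025480, chromosome 7, 140777229 to 140787852; coordinates here and below are GRCm38) had 236 ± 20.1 CPM per kilobase at 33 °C (SD, n = 5), Syce3 36.1 ± 5.60, Syce2 20.8 ± 8.12 and Tex12 0.914 ± 0.195. Proteins of all 4 build the middle of the synaptonemal complex, and Syce1 RNA was 179 to 363 times Tex12 RNA per kilobase in the 33 °C libraries. Among the cohesins, which hold sister chromatids in the axis, Stag3 had 124 ± 12.3, Smc1b 65.4 ± 11.5, and the kleisin Rec8 43.5 ± 10.9 CPM per kilobase. The other meiotic kleisin, Rad21l (ENSMUSG00000074704, chromosome 2, 151645404 to 151668533), had 0.0396 ± 0.0229, from 3 to 13 counts per library and 58 in all, too few for the low-count filter. Rec8 was 410 to 2967 times Rad21l in the 10 libraries, a ratio that rests on those few counts.

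For the axis and its zipper, Sycp3 and Sycp2, which coat the lateral elements, had 35.2 ± 9.32 and 29.2 ± 3.61 CPM per kilobase at 33 °C. The transverse filament gene Sycp1 had 8.33 ± 1.37, so that Sycp2 was 2.20 to 4.61 times Sycp1 in the 10 libraries. Exons of Sycp3 are overlapped over 52.2% of their length by Chpt1 on the opposite strand, which had 33827 counts, and the strand setting of the counting is not given. Hormad1, an axis protein of unsynapsed chromosomes, had 18.0 ± 3.77 and its relative Hormad2 2.99 ± 0.232. Trip13, the ATPase that removes HORMAD proteins, had 0.936 ± 0.296. For the complex that ties telomeres to the nuclear envelope, Terb1 had 12.1 ± 1.31, Majin 3.62 ± 0.504 and Terb2 0.563 ± 0.152.

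Break and repair genes were mostly low. Spo11, the enzyme that cuts the DNA, had 9.49 ± 4.21 CPM per kilobase at 33 °C, while Mei1 had 0.336 ± 0.0339, Prdm9, the methyltransferase that marks hotspots, 0.104 ± 0.0187, and Mei4, which works with SPO11, 0.0284 ± 0.0128. Dmc1 had 0.461 ± 0.216. Meiob, a single-strand binding partner of Spata22, had 2.03 ± 0.138 and Spata22 0.481 ± 0.204. For Spata22 80.5% of the exon length is shared with Gm49340 on the same strand, so its count is uncertain. Crossover genes lay between these, with 4.14 ± 1.10 for Mlh3, 2.70 ± 0.581 for Msh5, 1.41 ± 0.228 for Msh4, 0.957 ± 0.0739 for the helicase Hfm1 and 0.790 ± 0.192 for the X-linked gene Tex11. Among regulators, Meioc, which keeps cells in the meiotic programme, had 30.9 ± 2.89 and its partner Ythdc2, an RNA helicase, 1.38 ± 0.159. Tex14, a component of the bridges between germ cells, had 22.5 ± 1.40.

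After heat, no gene of the set passed the test in either direction. By edgeR's quasi-likelihood test, which could be applied to 34 of 35, 0 rose (0.0884% of all 26025 features did) and 0 fell (0.00384% did), with adjusted p below 0.05 as the call. Before adjustment, 3 genes had p below 0.05 and a lower level (2.94% of features), namely Meioc, Terb1 and Nek2, and 0 had a higher level (8.56%). All 3 had a mean of at least 10 CPM, as 21 members did. Of all 8494 tested genes at that level, 378 passed as lower and 434 as higher. The ranges of the 5 control and 5 heat libraries overlapped for each of the 34, where 1.32% of features lay wholly higher and 0.68% wholly lower at 42 °C. DESeq2 also called 0 of the set, beside 0.911% of its features called higher and 0.121% called lower, and before adjustment 1 member passed as higher (9.02% of features) and 2 as lower (2.39%). With limma voom 0 were called, beside 0.476% and 0.111% of features, and before adjustment 3 passed as higher (12.6% of features) and 1 as lower (6.61%). The 95% interval of the fold lay within 2-fold either way for 33 of 34 genes, all but Trip13, and within 1.5-fold for 17.

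Of the 34 values 20 were negative and 14 positive, and with library totals as the scaling 17 were negative. Of all features 51.1% were negative in the main fit and 45.8% with library totals. Their median was -0.081, beside -0.010 for all features. The share of negative values was higher among abundant genes, in the set as in the whole table. Of the 21 members with a mean of at least 10 CPM, 15 were negative (71.4%, median -0.16), and of all 8494 such genes 68.2% were negative (median -0.11). Among the 13 members under 10 CPM 5 were negative (38.5%, median 0.037), and of all 16454 such genes 45.2% were (median 0.047).

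**Figure D2:**
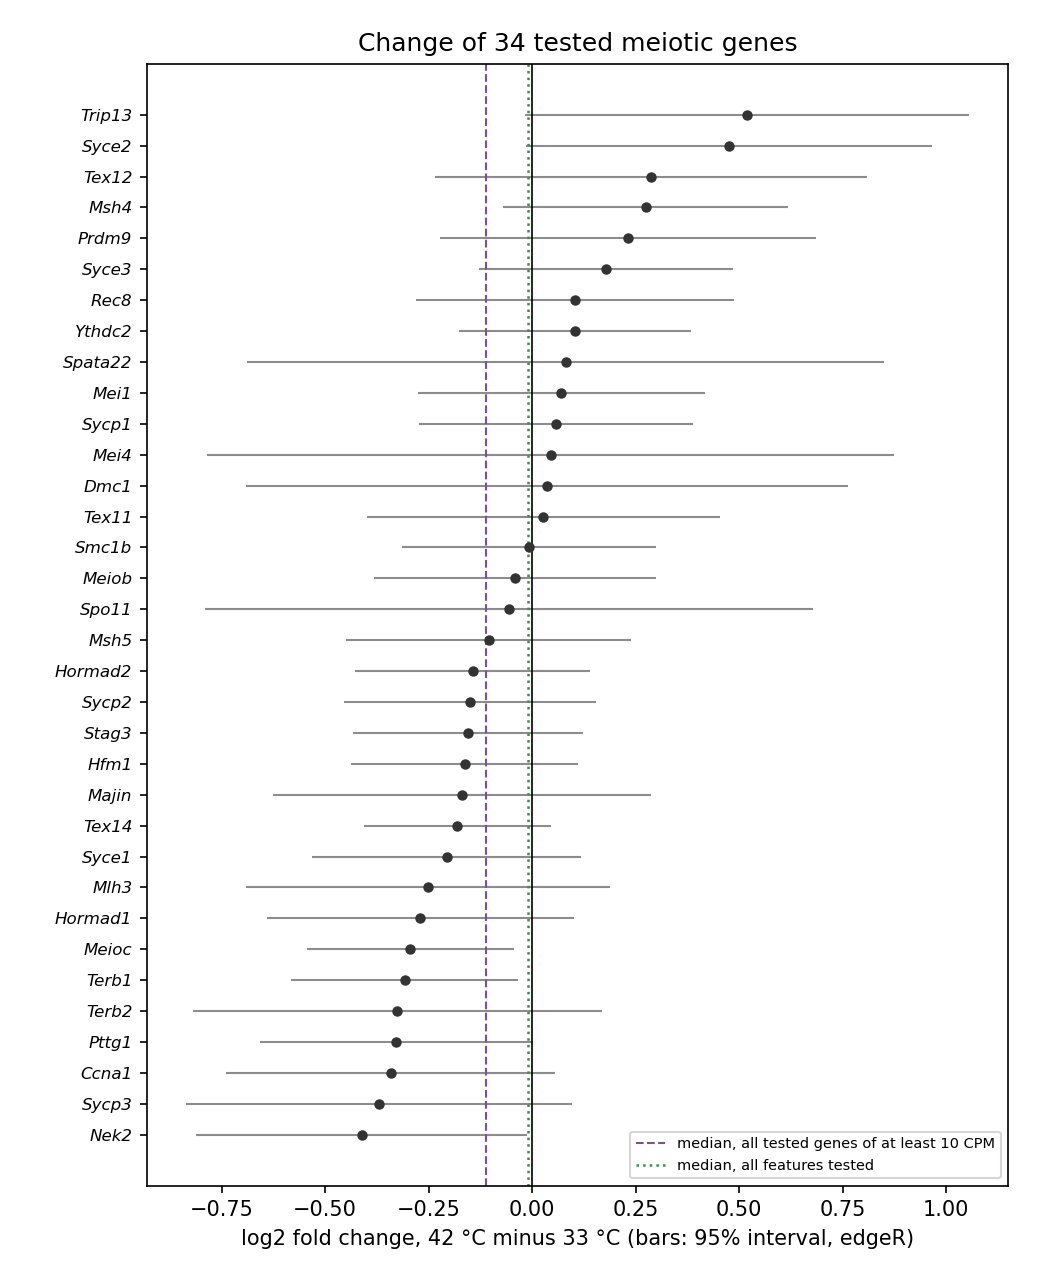
Log2 fold change (42 °C minus 33 °C) of the 34 tested meiotic genes with its 95% interval from edgeR, in order of size; the dashed line is the median of all tested genes of at least 10 CPM and the dotted line that of all features. The intervals of Meioc, Terb1 and Nek2 lie below 0, none lies above 0, and none of the genes passed after adjustment.

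All 3 genes of the meiotic divisions had negative values, with a median of -0.34. Nek2 (ENSMUSG00000026622, chromosome 1, 191821444 to 191833050), a centrosomal kinase that takes part in chromosome segregation, had 314, 348, 361, 399 and 236 CPM in the 33 °C libraries, replicates 1 to 5, and 302, 180.2, 302, 192 and 269.7 CPM in the 42 °C libraries. The 2 lowest were 42 °C replicates 2 and 4, and 33 °C replicate 5 lay below 3 of the heat libraries. Its log2 fold change was -0.41 (SE 0.18, 95% interval -0.81 to -0.012, edgeR adjusted p = 0.430). Ccna1 (ENSMUSG00000027793, chromosome 3, 55045469 to 55055501), the germ cell cyclin needed for the first division, had 311, 349, 344, 353 and 259 CPM in the 33 °C libraries, replicates 1 to 5, and 288, 157, 313, 213 and 304 CPM in the 42 °C libraries. Again 42 °C replicates 2 and 4 were lowest, and the other 3 heat libraries lay inside the control range. The change was -0.34 (SE 0.18, 95% interval -0.74 to 0.055, edgeR adjusted p = 0.472) in log2 units.

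Pttg1 (ENSMUSG00000020415, chromosome 11, 43420250 to 43426251), or securin, which holds back separase until anaphase, had 80.0, 71.3, 85.1, 92.6 and 71.1 CPM in the 33 °C libraries, replicates 1 to 5, and 68.1, 59.7, 82.1, 44.8 and 64.0 CPM in the 42 °C libraries. Only 42 °C replicate 3 among the heat libraries was above the lowest controls. The log2 fold change was -0.33 (SE 0.15, 95% interval -0.66 to 0.0017, edgeR adjusted p = 0.437). Nek2 and Ccna1 each share exons with an antisense gene, 6.6% of the exon length for Nek2 with Gm38037 and 10.1% for Ccna1 with 4931419H13Rik, so reads of either strand could enter their counts.

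Meioc (ENSMUSG00000051455, chromosome 11, 102663716 to 102682237) had the smallest p of the set. It had 136, 154, 142, 157 and 125 CPM in the 33 °C libraries, replicates 1 to 5, and 133, 115, 125, 96.1 and 113 CPM in the 42 °C libraries. Heat replicates 1 and 3 lay above the lowest control, 33 °C replicate 5, and the other 3 were below all controls. The log2 fold change was -0.29 (SE 0.12, 95% interval -0.54 to -0.044, edgeR adjusted p = 0.399), and the fold was 0.816 (95% interval 0.686 to 0.970). Its partner Ythdc2 averaged 12.2 ± 1.41 CPM (SD, n = 5) in controls and 13.1 ± 1.46 CPM after heat, a log2 fold change of 0.10 (SE 0.13), a value of the opposite sign. Tex14 (ENSMUSG00000010342, chromosome 11, 87405065 to 87555823), of the intercellular bridge, had 109, 114, 113, 123 and 105 CPM in the 33 °C libraries, replicates 1 to 5, and 109.7, 84.6, 108, 94.0 and 102 CPM in the 42 °C libraries, and its log2 fold change was -0.18 (SE 0.10, 95% interval -0.41 to 0.046, edgeR adjusted p = 0.486). It was among the steadiest genes of the set, with a coefficient of variation of 6.21% at 33 °C.

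All 3 telomere attachment genes had negative values. Terb1 (ENSMUSG00000052616, chromosome 8, 104446719 to 104509910), which links the telomere to cohesin, had 43.0, 48.4, 44.8, 52.0 and 39.3 CPM in the 33 °C libraries, replicates 1 to 5, and 43.1, 32.0, 40.9, 31.2 and 36.5 CPM in the 42 °C libraries. The heat libraries 2, 4 and 5 were below all controls, and replicates 1 and 3 were among them. The log2 fold change was -0.31 (SE 0.13, 95% interval -0.58 to -0.034, edgeR adjusted p = 0.410). Majin, the membrane anchor, averaged 5.94 ± 0.827 CPM (SD, n = 5) in controls and 5.28 ± 1.54 CPM after heat, a log2 fold change of -0.17 (SE 0.21), and Terb2 averaged 1.19 ± 0.321 CPM (SD, n = 5) in controls and 0.952 ± 0.172 CPM after heat, a log2 fold change of -0.33 (SE 0.23).

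In the central element, Syce1 had a negative value and the other 3 genes had positive ones. Syce1 had 324, 378, 306, 360.1 and 358 CPM in the 33 °C libraries, replicates 1 to 5, and 359, 207, 354, 270.4 and 304 CPM in the 42 °C libraries, and 42 °C replicate 2 was the lowest. The change of Syce1 was -0.21 (SE 0.15, 95% interval -0.53 to 0.12, edgeR adjusted p = 0.554). Syce2 (ENSMUSG00000003824, chromosome 8, 84872111 to 84888221) had 33.4, 39.6, 38.0, 25.9 and 67.9 CPM in the 33 °C libraries, replicates 1 to 5, and 49.7, 55.8, 52.5, 74.95 and 51.7 CPM in the 42 °C libraries. Control replicates 1 to 4 were below all heat libraries, and 33 °C replicate 5 was above all of them but replicate 4. The log2 fold change of Syce2 was 0.48 (SE 0.23, 95% interval -0.014 to 0.96, edgeR adjusted p = 0.445), second in size only to that of Trip13. Syce3 averaged 19.96 ± 3.10 CPM (SD, n = 5) in controls and 22.6 ± 2.97 CPM after heat, a log2 fold change of 0.18 (SE 0.14), and Tex12 averaged 0.928 ± 0.198 CPM (SD, n = 5) in controls and 1.14 ± 0.340 CPM after heat, a log2 fold change of 0.29 (SE 0.24).

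Among lateral and transverse components, Sycp3 (ENSMUSG00000020059, chromosome 10, 88459569 to 88473236) had 37.1, 42.4, 45.6, 63.8 and 33.4 CPM in the 33 °C libraries, replicates 1 to 5, and 47.3, 31.5, 36.9, 21.3 and 35.2 CPM in the 42 °C libraries. The highest library was 33 °C replicate 4 and the lowest 42 °C replicate 4, and the other 8 lay within 31.5 to 47.3 CPM with both groups mixed. Its log2 fold change was -0.37 (SE 0.21, 95% interval -0.84 to 0.097, edgeR adjusted p = 0.487). Sycp2 averaged 174 ± 21.5 CPM (SD, n = 5) in controls and 157 ± 27.1 CPM after heat, a log2 fold change of -0.15 (SE 0.14), and Sycp1 averaged 29.6 ± 4.87 CPM (SD, n = 5) in controls and 30.8 ± 5.56 CPM after heat, a log2 fold change of 0.059 (SE 0.15). Of the HORMA domain genes, Hormad1 averaged 31.2 ± 6.52 CPM (SD, n = 5) in controls and 25.9 ± 4.54 CPM after heat, a log2 fold change of -0.27 (SE 0.17), and Hormad2 averaged 8.17 ± 0.634 CPM (SD, n = 5) in controls and 7.39 ± 0.857 CPM after heat, a log2 fold change of -0.14 (SE 0.13).

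Trip13 (ENSMUSG00000021569, chromosome 13, 73911347 to 73937784) had the largest positive value of the set. Its levels were 3.14, 3.04, 3.65, 1.79 and 4.62 CPM in the 33 °C libraries, replicates 1 to 5, and 3.92, 5.65, 3.70, 6.21 and 3.84 CPM in the 42 °C libraries. The lowest library was 33 °C replicate 4, and 33 °C replicate 5 was above heat replicates 1, 3 and 5. The log2 fold change was 0.52 (SE 0.25, 95% interval -0.016 to 1.05, edgeR adjusted p = 0.445), an interval that reaches past a doubling.

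Log2 fold changes of the 3 tested cohesins lay between -0.16 and 0.10. Stag3 (ENSMUSG00000036928, chromosome 5, 138280240 to 138312393), the gene of the set with the most counts, had 709.8, 811, 630.4, 668 and 749 CPM in the 33 °C libraries, replicates 1 to 5, and 683, 486, 711, 665 and 659.7 CPM in the 42 °C libraries. The lowest was 42 °C replicate 2, and the other 4 heat libraries lay inside the control range. Its log2 fold change was -0.16 (SE 0.13, 95% interval -0.43 to 0.12, edgeR adjusted p = 0.600). Smc1b (ENSMUSG00000022432, chromosome 15, 85064689 to 85131964) had 252, 277, 211, 246 and 336 CPM in the 33 °C libraries, replicates 1 to 5, and 306, 212, 261, 279 and 258 CPM in the 42 °C libraries, with the lowest and the highest level both among controls. For Smc1b the log2 fold change was -0.0074 (SE 0.14, 95% interval -0.31 to 0.30, edgeR adjusted p = 0.983). Rec8 averaged 128 ± 32.1 CPM (SD, n = 5) in controls and 137 ± 23.1 CPM after heat, a log2 fold change of 0.10 (SE 0.18).

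Genes of break formation and strand exchange showed no common sign. Spo11, whose highest library was 3.99 times its lowest, had 20.6, 53.4, 23.5, 55.7 and 32.9 CPM in the 33 °C libraries, replicates 1 to 5, and 37.6, 44.5, 37.7, 13.98 and 45.3 CPM in the 42 °C libraries. Both groups thus held low and high libraries, and the log2 fold change was -0.056 (SE 0.34, 95% interval -0.79 to 0.68, edgeR adjusted p = 0.948). Prdm9 (ENSMUSG00000051977, chromosome 17, 15543079 to 15564354) had 0.419, 0.416, 0.589, 0.437 and 0.383 CPM in the 33 °C libraries, replicates 1 to 5, and 0.502, 0.460, 0.605, 0.482 and 0.586 CPM in the 42 °C libraries. All 5 heat libraries were above all controls but replicate 3, on 31 to 61 counts per library. The value was a log2 fold change of 0.23 (SE 0.21, 95% interval -0.22 to 0.69, edgeR adjusted p = 0.625). Mei4 (ENSMUSG00000043289, chromosome 9, 81863670 to 82206007) had 0.121, 0.163, 0.112, 0.0320 and 0.158 CPM in the 33 °C libraries, replicates 1 to 5, and 0.0904, 0.104, 0.129, 0.146 and 0.136 CPM in the 42 °C libraries. These levels rest on 3 to 18 counts per library, the lowest in 33 °C replicate 4, and the log2 fold change was 0.045 (SE 0.38, 95% interval -0.79 to 0.87, edgeR adjusted p = 0.964). Mei1 (ENSMUSG00000068117, chromosome 15, 82069996 to 82126814), needed for break formation, had 1.64, 1.63, 1.79, 1.34 and 1.57 CPM in the 33 °C libraries, replicates 1 to 5, and 1.84, 1.42, 1.76, 1.81 and 1.53 CPM in the 42 °C libraries, a log2 fold change of 0.071 (SE 0.16, 95% interval -0.28 to 0.42, edgeR adjusted p = 0.848). Its highest library was only 1.37 times its lowest. Dmc1 (ENSMUSG00000022429, chromosome 15, 79561497 to 79605109) had 1.06, 0.552, 1.85, 1.43 and 0.721 CPM in the 33 °C libraries, replicates 1 to 5, and 0.874, 1.36, 0.783, 1.05 and 1.69 CPM in the 42 °C libraries, a log2 fold change of 0.037 (SE 0.33, 95% interval -0.69 to 0.76, edgeR adjusted p = 0.966). The level of Dmc1 varied by 46.9% (coefficient of variation) among controls, from 61 to 182 counts. Meiob averaged 3.66 ± 0.248 CPM (SD, n = 5) in controls and 3.56 ± 0.633 CPM after heat, a log2 fold change of -0.041 (SE 0.16), and Spata22 averaged 0.612 ± 0.260 CPM (SD, n = 5) in controls and 0.652 ± 0.309 CPM after heat, with 0.081 (SE 0.35).

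Among crossover genes, Msh4 (ENSMUSG00000005493, chromosome 3, 153857149 to 153906138), which forms the MutSγ clamp with Msh5, had 11.03, 10.5, 10.1, 7.01 and 9.86 CPM in the 33 °C libraries, replicates 1 to 5, and 10.9, 12.0, 10.1, 14.9 and 10.8 CPM in the 42 °C libraries. The lowest was 33 °C replicate 4 and the highest 42 °C replicate 4, with the rest between 9.86 and 12.0 CPM. Its log2 fold change was 0.27 (SE 0.16, 95% interval -0.069 to 0.62, edgeR adjusted p = 0.486), a value of opposite sign to that of Msh5, which averaged 14.9 ± 3.21 CPM (SD, n = 5) in controls and 13.9 ± 1.82 CPM after heat, a log2 fold change of -0.11 (SE 0.16). Mlh3, of the MutLγ nuclease, averaged 31.3 ± 8.29 CPM (SD, n = 5) in controls and 26.3 ± 5.46 CPM after heat, a log2 fold change of -0.25 (SE 0.20). Hfm1 averaged 6.40 ± 0.494 CPM (SD, n = 5) in controls and 5.72 ± 0.472 CPM after heat, at -0.16 (SE 0.13), and Tex11 2.86 ± 0.697 CPM (SD, n = 5) in controls and 2.92 ± 0.520 CPM after heat, at 0.027 (SE 0.20).

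Relative levels of partner genes, which do not depend on how libraries are scaled, were compared for 20 pairs named after the values were seen. Syce1 was 5.61 to 7.64 times Syce3 per kilobase in the 33 °C libraries and 4.39 to 5.46 times in the 42 °C libraries. These ranges did not overlap, with a difference of -0.41 in the mean log2 ratio (exact two-sided permutation p = 0.00794, the smallest that 252 assignments allow). Adjusted over the 20 pairs the p was 0.159. With 252 assignments, a single pair at the smallest possible p could not pass this adjustment, so it cannot decide on the shift. Meioc was 18.3 to 29.2 times Ythdc2 at 33 °C and 14.2 to 20.2 times at 42 °C (exact permutation p = 0.0317, adjusted 0.317), and Syce1 was 7.10 to 18.7 and 4.86 to 9.73 times Syce2 (exact permutation p = 0.0476, adjusted 0.317). The steadiest pair was Ccna1 and Nek2, with ratios of 2.18 to 2.71 and 2.15 to 2.78. The other 16 pairs had an exact permutation p of 0.0794 or more.

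Many genes of the set had an extreme level in 33 °C replicate 4 or in 42 °C replicate 4. Of the 34 tested genes 11 were highest in 33 °C replicate 4 and 13 were lowest in 42 °C replicate 4. Above their own mean in the first and below it in the second were 19 genes, among them Spo11, Sycp3, Mlh3, Nek2, Pttg1, Majin, Hormad1, Sycp2, Terb1, Ccna1 and Meioc. The opposite held for 10, namely Mei4, Trip13, Syce2, Msh4, Rec8, Tex11, Syce3, Sycp1, Smc1b and Mei1. These 2 libraries were singled out after the values were seen. They belong to different groups and each mean is over all 10 libraries, so the counts include any difference between the groups. The same counts were not made over all features. In 33 °C replicate 4, Sycp3 was 0.75 above its mean on the log2 scale and Syce2 0.85 below (-0.85), and in 42 °C replicate 4 Sycp3 was at -0.84 and Syce2 at 0.68. Without both libraries 0 members were called (0.0115% of features were called higher and 0 lower), 21 of 34 values were negative and the median was -0.054, and no member had an unadjusted p under 0.05 (3.04% of features did as higher and 1% as lower). The value of Nek2 without them was -0.26 (edgeR adjusted p = 0.909), of Syce2 0.23 (0.909) and of Trip13 0.24 (0.909).

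**Figure D3:**
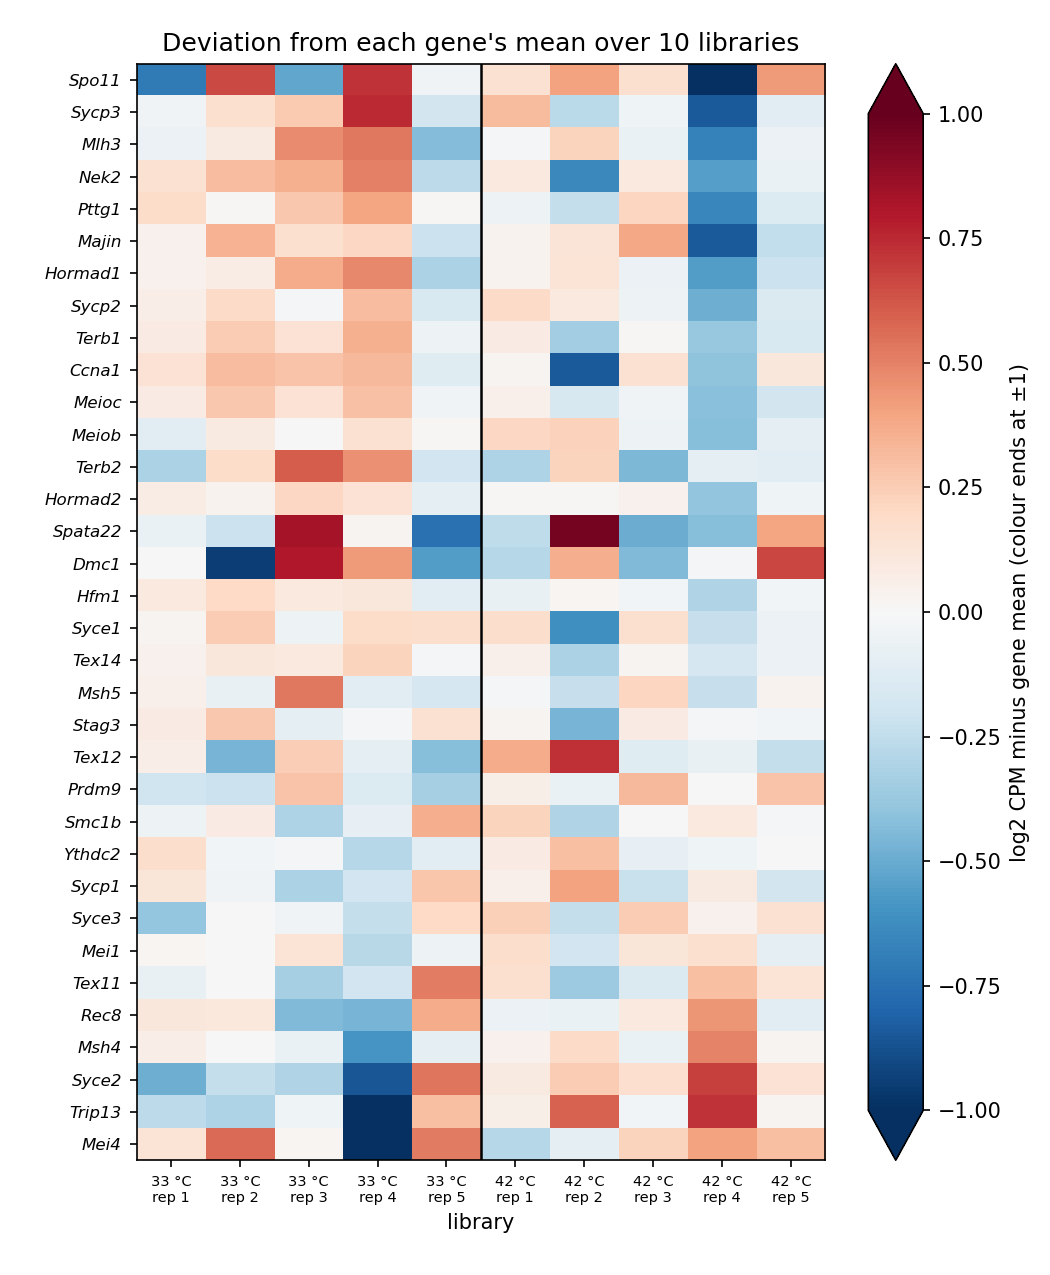
Deviation of each of the 34 tested genes from its own mean over 10 libraries, in log2 CPM, with genes sorted by the difference between 33 °C replicate 4 and 42 °C replicate 4. Sycp3, Mlh3 and Nek2 are high (red) in the first and low (blue) in the second, and Syce2, Trip13 and Msh4 show the reverse, and Spo11 and Ccna1 are among the genes that also vary in other libraries.

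Round spermatid markers were at their extremes in the same 2 libraries. The summed level of the 20 round spermatid markers was lowest in 33 °C replicate 4 (2795 CPM) and highest in 42 °C replicate 4 (4842 CPM). In 33 °C replicate 5, where Syce2 was highest among controls, the sum was 4460 CPM. In 42 °C replicate 2 the sum was 3198 CPM, the lowest of the heat libraries, while Syce2 had 55.8 CPM and Trip13 5.65 CPM, each second highest among the heat libraries. The sum of elongating spermatid markers was 5598 CPM in 33 °C replicate 4 and 8442 CPM in 42 °C replicate 4, and its extremes lay elsewhere, at 5416 CPM in 42 °C replicate 2 and 11636 CPM in 42 °C replicate 5. Over groups the round spermatid sum was 3437 ± 655 CPM in controls and 3864 ± 601 CPM after heat (SD, n = 5 each). Its largest parts in controls were Dkkl1 (878 CPM), Pgk2 (487 CPM) and Actl7b (455 CPM), with log2 fold changes of -0.099, 0.051 and 0.17. Values above 0 were found for 18 of the 20 round spermatid markers (median 0.31) and for 17 of 18 elongating spermatid markers (median 0.38), with 0 of either list past the adjusted threshold. Of all features 48.9% were above 0, and of tested genes with a mean of at least 10 CPM, as all these markers had, 31.8%. Of other cells' markers, 9 of 15 spermatogonial (median 0.054), 9 of 13 Sertoli (0.20), 1 of 8 Leydig (-0.75), 3 of 7 macrophage (-0.15) and 1 of 2 erythroid genes tested were above 0, with 0 calls. The summed level of the meiotic set was 2969 ± 165 CPM in controls (2803 to 3196) and 2626 ± 321 CPM after heat (2165 to 2925), and the groups overlapped. Its lowest value was in 42 °C replicate 2, the library with the high TE share, where 6 members were lowest (Syce1, Ccna1, Stag3, Nek2, Tex14 and Tex11) and 5 were highest (Sycp1, Meiob, Ythdc2, Tex12 and Spata22). TE counts are part of the library total behind CPM. As a share of gene counts alone, the set took 0.287% in that library, above 0.260% in 42 °C replicate 4 and 0.284% in 33 °C replicate 5. The ratio of the 2 sums was 0.650 to 1.10 at 33 °C and 0.506 to 0.797 at 42 °C. The part of cell stage and of TE share in the values of the meiotic genes was not tested.

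**Figure D4:**
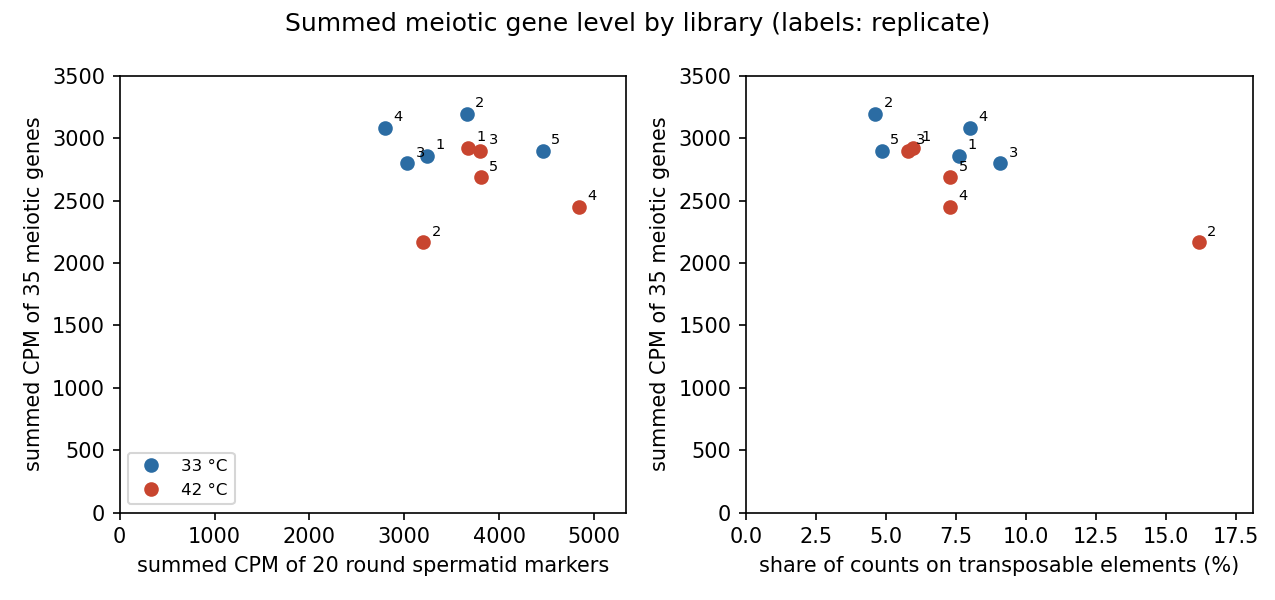
Summed level of the 35 meiotic genes in each library (CPM) against the summed level of 20 round spermatid markers (left, CPM) and the share of counts on transposable elements (right, %), with replicate numbers at the points. 42 °C replicate 2 is lowest, at 2165 CPM and a TE share of 16.2% (TE counts are part of the CPM total), and 42 °C replicate 4 has the highest sum of round spermatid markers, 4842 CPM.

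Of other genes of the pathway, none passed the test either. From a list of 94 meiotic genes outside the set, 93 were in the table and 92 were tested, and 0 rose and 0 fell. Before adjustment 7 of the 92 passed as lower (2.94% of all features) and 0 as higher (8.56%). Among the 66 with a mean of at least 10 CPM, 5 passed as lower, beside 378 lower and 434 higher of all 8494 such genes. Of the 92, 75 had a negative value (81.5%, median -0.17), beside 51.1% of all features (median -0.010). Among the 66 with a mean of at least 10 CPM 57 were negative (86.4%, median -0.18), beside 68.2% of all such genes (median -0.11). Of the 26 under 10 CPM 18 were negative (69.2%, median -0.10), beside 45.2% of all such genes (median 0.047). By role, 31 of 35 genes of entry, progression and division were negative (median -0.24), 30 of 38 of recombination and repair (median -0.14) and 14 of 19 of axis and synapsis (median -0.099).

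The division list included Spdl1, a spindle checkpoint adaptor, at -0.63 (SE 0.20, edgeR adjusted p = 0.369), Mybl1, a transcription factor of pachytene spermatocytes, at -0.44 (SE 0.18, edgeR adjusted p = 0.414), and Boll, an RNA-binding protein, at -0.31 (SE 0.13, edgeR adjusted p = 0.423). In the recombination list the helicase Helb averaged 0.236 ± 0.0425 CPM in controls and 0.102 ± 0.0336 CPM after heat, at -1.21 (SE 0.30, edgeR adjusted p = 0.244). Its groups did not overlap, which held for 1 of the 92 tested genes, beside 0.68% of all features wholly lower at 42 °C. Its level was low, so this separation rests on few counts. The crossover regulator Cntd1 had -0.35 (SE 0.15). Of the axis list, the mitotic kleisin Rad21 had 0.29 (SE 0.14), Wapl, which releases cohesin, had -0.23 (SE 0.13), and Sun1, the nuclear envelope partner of the telomere complex, 0.25 (SE 0.14). Adjusted p was 0.244 or more for each of these genes.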

How the data were processed

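The values used are whole-number counts, as the authors deposited them, for 55401 genes and 1146 TE subfamilies in 10 libraries; the unit was judged from whole values and unequal totals. DRAGEN, cutadapt, Trim Galore, GRCm38 and mm10 are named, with no role or version, per the submitters' processing notes. Libraries came from a stranded ribosomal depletion kit per the labels' protocols. How reads were counted, strand included, is not given in the sources used here. The 35 gene positions equalled GENCODE M21, whose merged exons gave the lengths. Counts were tested with edgeR 4.0.16 (R 4.3.3) by the quasi-likelihood test, with TMM over genes and TE subfamilies, filterByExpr (minimum count 10, total 15), group as sole term and Benjamini-Hochberg adjustment over 26025 features at 0.05. Limits are 95% intervals of that fit. Alternatives used DESeq2 1.42.0, limma 3.58.1 (voom with quality weights), other scalings and filters, a replicate block and each library left out. The procedure was tested on simulated data. Members, lists and tests were chosen with earlier results of these data known. Every member is named. The rule for giving a member in full takes the 10 of smallest p, the 5 highest and 5 lowest in level per kilobase, and any called by an alternative (0 were). Rad21l falls under it but was not tested in the main fit, and not every library of it is printed. Spo11 is printed by library though outside it. Of other lists up to 3 of smallest p are named for the meiotic lists, and the cell type lists are given by counts and levels; 1 gene that this rule selects is not reported here. The smallest chi-square per degree of freedom between libraries of a group was 10.4, for 42 °C replicates 1 and 3, so none were merged. This pair was closer than any other, and the next pair of a group had 38.4.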

Additional observations from a re-analysis of the deposited data

Results flagged for a closer look

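A sample stood apart from the other 4 of its group, with a gap over 0.71 of the range, in 7 of the 74 groups of 5 values examined, where chance gives about 1 in 20. Stag3 had 486 CPM in 42 °C replicate 2, where the next value was 659.7 CPM. In 42 °C replicate 4, Syce2 had 74.95 CPM (next 55.8), Spo11 13.98 CPM (next 37.6) and Hormad2 5.89 CPM (next 7.50). In 33 °C replicate 3, Msh5 had 20.5 CPM (next 14.7), Prdm9 0.589 CPM (next 0.437) and Rad21l 0.132 CPM (next 0.0552), the last from 13 counts. That library also had the highest summed level of Leydig markers, 20.5 CPM. Their causes were not tested.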

How the results depend on the processing

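The 0 calls among members and among other meiotic genes held in all 19 alternatives, 18 planned and 1 added after the values were seen (without both replicates 4). The smallest adjusted p of any member was 0.0713, for Syce2 without 33 °C replicate 5 (log2 0.78), and with limma voom Syce2 had 0.0809 (log2 0.59) and Syce3 0.0958; over the alternatives the adjusted p of Syce2 reached 0.909. The median of the members ran from -0.13 to -0.030 and the number of negative values from 17 of 34 (library totals) to 21. With library totals the set was evenly split, and the share over all features moved too, from 51.1% negative in the main fit to 45.8%. Nek2, Ccna1, Pttg1, Meioc, Terb1, Tex14, Sycp3, Stag3 and Syce1 kept a negative sign, and Syce2, Trip13, Msh4 and Prdm9 a positive one, in every alternative that tested them, but sizes moved. Without 42 °C replicate 2, Stag3 went from -0.16 to -0.040, Syce1 from -0.21 to -0.073, Ccna1 from -0.34 to -0.18 and Tex14 from -0.18 to -0.098, and Stag3 had -0.062 and Syce1 -0.13 without 33 °C replicate 2, while Stag3 had -0.099 without 33 °C replicate 5. Sycp3 went from -0.37 to -0.20 and -0.24, and Msh4 from 0.27 to 0.18 and 0.17, without 33 °C or 42 °C replicate 4. Without both replicates 4 Sycp3 had -0.072, Msh4 0.077, Pttg1 -0.17, Meioc -0.20 and Terb1 -0.20. With limma voom Syce1 had -0.045, Stag3 -0.073, Ccna1 -0.19, Sycp3 -0.18, Nek2 -0.25, Terb1 -0.20, Tex14 -0.10 and Msh4 0.14.

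Among tested genes that the rule for giving in full takes, signs turned for 4, all with values near 0 and none called. Of the other members Meiob, Msh5, Rec8, Spata22, Spo11, Sycp1, Sycp2, Tex11 and Ythdc2 also had both signs over the alternatives. Smc1b had 0.095 with limma voom, 0.0068 with the size factors of DESeq2, 0.044 with library totals, 0.034 with genes only and 0.034 with no filter, 0.025 with a mean of at least 1 CPM, 0.00016 with the replicate block, and -0.081 to 0.13 with 1 library left out. Dmc1 had -0.047 with limma voom and -0.14 to 0.29 with 1 library left out. Mei4 had -0.19 to 0.24 with 1 library left out and -0.27 without both replicates 4. Mei1 had -0.015 without both replicates 4, and 0.16 at most, without 42 °C replicate 2. The causes were not tested.

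The replicate numbers did not pair the libraries: deviations from the group means of same-numbered libraries correlated at -0.557 to -0.104 over 26025 features, and no library correlated best with its own number. With the replicate block 4 features were called higher and 0 lower (23 and 1 without it), none of them a member, and the member median was -0.074. Depth limits Rad21l, Mei4 and Prdm9, with 58, 112 and 458 counts over 10 libraries. Over all features, calls (higher and lower) were 308 and 41 with DESeq2, 124 and 29 with limma voom, 73 and 3 with no filter, 15 and 1 with library totals, 2 and 0 with a mean of at least 1 CPM, and 10 to 21 higher with 1 library left out.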
